A study of Homo sapiens with 6 samples.

Results

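The 8 genes examined here encode survivin (*BIRC5*), 4 other inhibitors of apoptosis proteins or IAPs (*XIAP*, *BIRC2*, *BIRC3* and *BIRC6*), the mitochondrial IAP antagonists Smac (*DIABLO*) and Omi (*HTRA2*), and the initiator caspase on which the mitochondrial death pathway converges (*CASP9*). They were taken by name, with earlier results of these data known, and are 8 of the 58735 genes in the expression tables. The transcriptome of SK-N-AS, an established line of human neuroblastoma cells, was sequenced after transfection with a negative control siRNA (NC) or with an siRNA against the splicing factor Prp19 (siPrp19), whose gene is *PRPF19*. The labels place RNA collection at 72 h after transfection, whereas a shorter time stands in the study's methods. The labels do not name the siRNA, but the study states that the first of its siRNAs against Prp19 was selected for later assays. The study's methods call the replicates biological without saying whether they were separate cultures. The p-values measure only the spread between these libraries. Each group had 3 libraries, named here by their deposited value columns as NCa, NCb and NCc and as siPrp19a, siPrp19b and siPrp19c.

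For 2 of the 6 libraries, the group is contradictory. The column NCb belongs to the file recorded under siPrp19 replicate 1, and the column siPrp19b to the file recorded under NC replicate 3. *PRPF19* stood at 83.0, 83.1 and 93.0 FPKM (fragments per kilobase of exon, a level corrected for gene length and library size) in NCa, NCb and NCc, and at 19.6, 19.1 and 18.5 FPKM in siPrp19a, siPrp19b and siPrp19c. The targeted gene was therefore high in the library recorded as siPrp19 replicate 1 and low in the one recorded as NC replicate 3. Groups by column name, which is also the sample description, were compared first (3 against 3). Beside this stand the comparison of the 4 libraries on which both readings give the same group (2 against 2) and the comparison of all 6 as recorded. In the comparison by column names, *PRPF19* fell by 2.12 ± 0.07 (SE) on the log2 scale (adjusted p = 0.000215), the difference was -2.15 in the 4 libraries (adjusted p = 0.0266), and as recorded it was -0.74 and did not pass.

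The libraries held 14887132 to 19977811 reads, and the 8 genes were covered by 114 to 4669 reads per library. By counting error alone, NCa and NCb differed little (chi-square per degree of freedom 1.75), as did siPrp19b and siPrp19c (2.85), against 21.5 to 56.5 for the other 13 pairs of libraries. Mitochondrial genes took 8.29% of the reads in siPrp19a and 5.15% to 5.49% elsewhere. Of 9 sympathoadrenal markers, which identify the lineage of neuroblastoma, 8 passed the filter on low values, and *TH*, which encodes tyrosine hydroxylase, stood at 0.31 to 0.66 FPKM. Of 6 markers of other cell types, *CD3E* and *CDH5* were listed at 0 in every library and *EPCAM*, *KRT5* and *PECAM1* did not pass the filter, while *PTPRC*, which encodes the leukocyte antigen CD45, stood at 24.9 to 30.7 FPKM in the NC columns and at 16.9 to 20.4 FPKM in the siPrp19 columns. Its part in the results was not tested.

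IAPs share the baculoviral IAP repeat, a zinc-binding fold. XIAP binds and blocks caspases directly, whereas cIAP1 (*BIRC2*) and cIAP2 (*BIRC3*) act mainly as ubiquitin ligases in signalling from tumour necrosis factor receptors to NF-kB. Smac and Omi are released from mitochondria together with cytochrome c and displace IAPs from caspases, and cytochrome c assembles APAF1 into the apoptosome that activates CASP9. Survivin is in addition a subunit of the chromosomal passenger complex, which guides chromosomes through mitosis, and its transcript is made mainly in the G2 and M phases of the cell cycle. High survivin expression is well known in neuroblastoma.

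*BIRC3* and *BIRC2* lie next to each other on the plus strand of chromosome 11, and their start regions are shown because both genes fell by column names and *BIRC3* is a textbook NF-kB target. RefSeq promoter windows (GRCh38.p14, from 250 bases before to 50 bases after the start) were held for 7 of the 8 genes, all but *BIRC5*. In the window of *BIRC3* (chr11:102317234-102317533) the capitals mark 2 matches to the NF-kB consensus on the minus strand, with first bases at -199 and -135 from the start. In that of *BIRC2* (chr11:102346964-102347263) they mark the SP1 box GGGCGG, with its first base at 26.
BIRC3: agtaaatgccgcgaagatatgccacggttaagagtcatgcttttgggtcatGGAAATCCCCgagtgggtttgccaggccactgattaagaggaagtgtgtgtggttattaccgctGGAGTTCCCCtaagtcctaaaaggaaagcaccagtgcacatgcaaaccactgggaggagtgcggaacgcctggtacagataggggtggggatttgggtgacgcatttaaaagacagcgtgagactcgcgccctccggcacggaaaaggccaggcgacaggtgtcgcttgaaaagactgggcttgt
BIRC2: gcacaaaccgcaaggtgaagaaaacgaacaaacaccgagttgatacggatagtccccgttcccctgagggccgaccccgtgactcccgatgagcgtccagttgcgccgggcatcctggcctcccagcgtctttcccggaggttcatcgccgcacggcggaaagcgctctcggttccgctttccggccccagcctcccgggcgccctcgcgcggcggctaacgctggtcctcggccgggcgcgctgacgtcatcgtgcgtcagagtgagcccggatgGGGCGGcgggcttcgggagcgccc
Searched on both strands, an NF-kB match was held by 5.91% and an SP1 box by 45.0% of all 35116 windows. *BIRC6*, which did not fall, also held an NF-kB match, in 1 of its 2 windows. *BIRC2* held no NF-kB match in either of its 2 windows, and the window of *BIRC3* held no SP1 box. *XIAP*, *BIRC6*, *DIABLO*, *HTRA2* and *CASP9*, which did not pass, each held an SP1 box in at least 1 window. A match describes letters only and shows no binding.

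By column names, 3 of the 8 genes fell and none rose. The mean level of survivin fell by 48.2%, that of *BIRC3* fell by 34.5% and that of *BIRC2* fell by 20.6%. These 3 passed the test (limma on log2(FPKM + 1), Benjamini-Hochberg adjusted p under 0.05), while *XIAP*, *BIRC6*, *DIABLO*, *HTRA2* and *CASP9* did not. Of all 13718 genes tested, 7.94% were called, 5.37% as lower and 2.57% as higher. The higher calls made up 32.4% of them, but 46.1% after quantile normalization and 54.5% with voom on recovered reads. The FPKM ranges of the groups did not overlap for 6 of the 8 genes, 5 of them lower in the siPrp19 columns, against 31.3% of all genes tested. The median log2 difference was -0.28 over the 8 genes and -0.02 over all genes. With NCa and NCb averaged and siPrp19b and siPrp19c averaged, a step chosen after seeing the data, none of the 8 genes passed (*BIRC5* -1.02, adjusted p = 0.120), and 2 of all genes did. In the 4 libraries none of the 8 genes passed (lowest adjusted p 0.107), where 0.0146% of all genes were called, 2 in number, although 3 of the 8 and 1685 genes in all had an unadjusted p under 0.05 and voom called 266 genes, *BIRC5* among them. As recorded, none of the 8 passed either by limma or by voom, and 0% of all genes did. There, 191 genes and none of the 8 had an unadjusted p under 0.05.

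**Figure D1:**
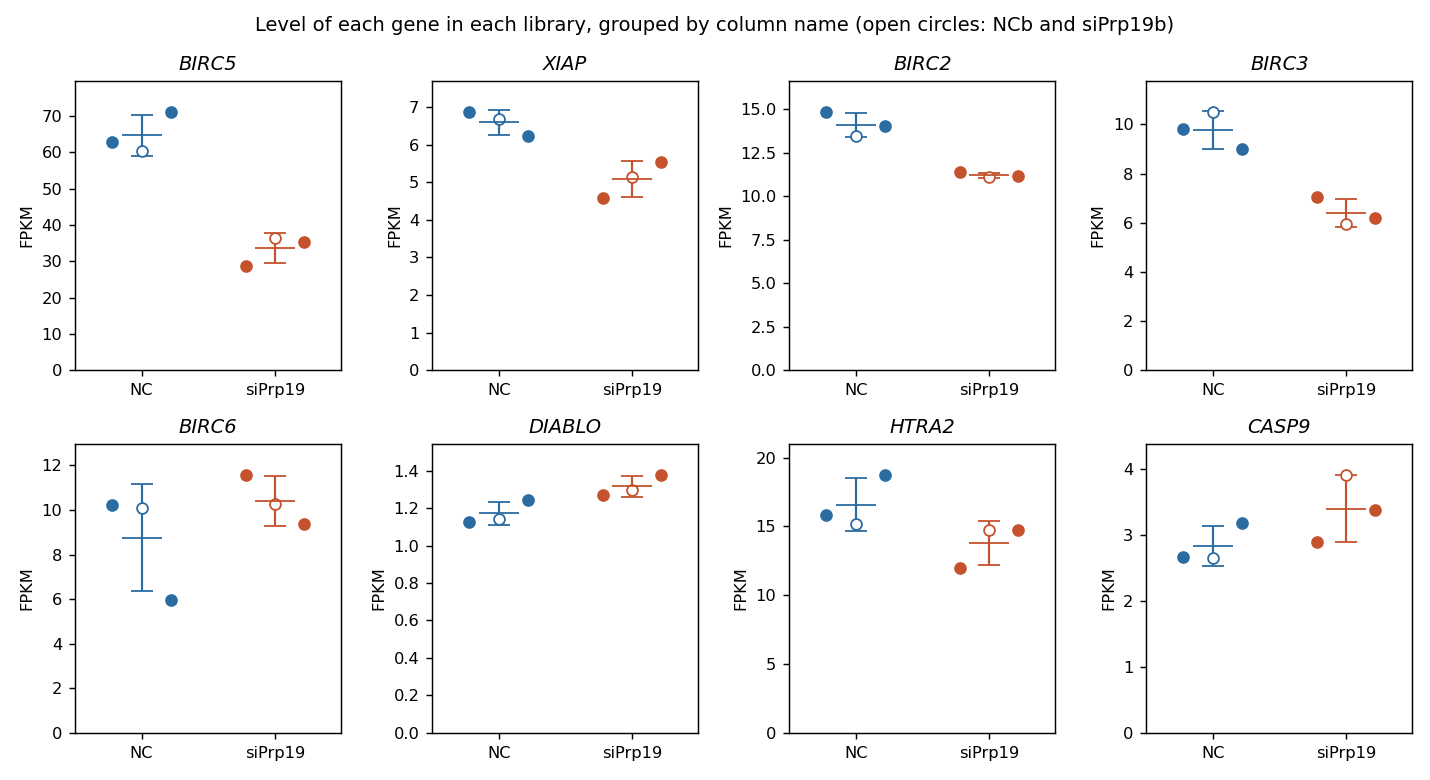
FPKM (vertical axes, from 0) of the 8 genes in each of the 6 libraries, grouped by column name, with horizontal lines for means and bars for SD (n = 3); open circles are NCb and siPrp19b, whose file records give the opposite group. The siPrp19 points of *BIRC5* lie between 28.8 and 36.4 and its NC points between 60.4 and 71.2, whereas the groups of *BIRC6* and *CASP9* overlap.

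Survivin was the most abundant of the 8 transcripts in both groups. In the NC columns the mean levels ran from *BIRC5* (64.8 FPKM) through *HTRA2* (16.6), *BIRC2* (14.1), *BIRC3* (9.77), *BIRC6* (8.76), *XIAP* (6.59) and *CASP9* (2.83) to *DIABLO* (1.17). The ranges of *BIRC3* and *BIRC6* overlapped in that order, as did those of *BIRC6* and *XIAP*. The places of *HTRA2* and *DIABLO* are less certain, since 36.9% and 30.4% of their exon bases are shared with other genes. In the siPrp19 columns *BIRC5* (33.6 FPKM), *HTRA2* (13.8) and *BIRC2* (11.2) kept their ranks, *BIRC6* (10.4) stood above *BIRC3* (6.40), and only the neighbours *BIRC2* and *BIRC6* overlapped. Summed over the 5 IAPs, the level was 101 to 106 FPKM in the NC columns and 63.4 to 68.9 FPKM in the siPrp19 columns. Survivin made up 59.7% to 66.9% of that sum in the former and 45.4% to 52.9% in the latter. The other 4 IAPs together ranged from 35.2 to 41.7 FPKM and from 32.3 to 34.6 FPKM.

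*BIRC5* (ENSG00000089685) spans 78214186 to 78225636 of chromosome 17, plus strand. Gene coordinates here are those of GENCODE 29 on GRCh38. Its level was 62.8, 60.4 and 71.2 FPKM in NCa, NCb and NCc, against 28.8, 36.4 and 35.5 FPKM in siPrp19a, siPrp19b and siPrp19c. Every siPrp19 column was far below every NC column, and siPrp19a was the lowest of all. The means were 64.8 ± 5.64 and 33.6 ± 4.16 FPKM (SD, n = 3), and the log2 fold change was -0.93 ± 0.11 (SE; adjusted p = 0.00668, rank 147 of 13718 by p). It was larger, at -1.04, in the 4 libraries but did not pass (adjusted p = 0.107). As recorded it was -0.46, with group means of 56.8 ± 18.1 and 41.6 ± 16.7 FPKM. The FPKM values cannot tell fewer cells expressing the gene from less transcript per cell, here or for any other gene.

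The partners of survivin at the centromere were lower alongside it, with smaller differences. All 7 had a log2 fold change below 0 by column names (median -0.30), and 2 fell, *INCENP* and *CDCA8*. Over all genes tested the median was -0.02 and 5.37% fell. *INCENP*, the scaffold of the passenger complex, stood at 23.7, 23.4 and 17.9 FPKM in the NC columns and at 13.2, 15.3 and 14.0 FPKM in the siPrp19 columns (log2 fold change -0.57 ± 0.12, adjusted p = 0.0338). *CDCA8*, which encodes the subunit borealin, went from 22.7 to 23.6 FPKM in the NC columns to 16.6 to 18.2 FPKM in the siPrp19 columns (-0.40 ± 0.06, adjusted p = 0.0151). Neither gene had overlapping groups. *AURKB*, the kinase of the complex, did not pass (-0.34, 95% interval -0.58 to -0.10, adjusted p = 0.0961), nor did *BUB1*, *SGO1*, *HASPIN* and *XPO1*. The median was -0.26 in the 4 libraries, where all 7 were again below 0 and none passed. By column names, none of the 7 passed without NCa, NCb, siPrp19b or siPrp19c, 3 without NCc and 2 without siPrp19a. It was 1 of the 7 without the filter, after quantile normalization or after rescaling.

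Genes of the G2 and M phases, whose timing survivin shares, were lower too. Of 15 such genes 9 fell and none rose by column names, with a median of -0.42 and a range of -0.69 to -0.27. Over all genes tested, 5.37% fell and the median was -0.02. *CDC20*, an activator of the anaphase-promoting complex, stood at 67.1, 67.4 and 73.9 FPKM in the NC columns and at 42.9, 45.7 and 39.8 FPKM in the siPrp19 columns (log2 fold change -0.69, adjusted p = 0.00649). *CCNB1*, which encodes cyclin B1, changed by -0.59 (adjusted p = 0.00985), the spindle factor *TPX2* by -0.49 (adjusted p = 0.0403), the kinesin *KIF20A* by -0.48 (adjusted p = 0.0477) and the mitotic kinase *CDK1* by -0.48 (adjusted p = 0.0111). The difference of *BIRC5* was larger than that of any of the 15. The proliferation marker *MKI67* did not pass (-0.37, 95% interval -0.92 to 0.18, adjusted p = 0.390), and its value in NCc, 14.9 FPKM, was below 2 of the 3 siPrp19 columns. All 15 were below 0 in the 4 libraries too (-0.75 to -0.22), and none passed. By column names the number that fell was 5 after quantile normalization, after rescaling to equal sums or without the filter. It was 3 without NCa, 2 without NCb, 2 without siPrp19b, 1 without siPrp19c, 9 without NCc and 10 without siPrp19a. Over all genes tested, 736 fell with every library, but 202 without NCa, 247 without NCb, 216 without siPrp19b and 201 without siPrp19c. It was 896 without NCc and 715 without siPrp19a. Whether the level of *BIRC5* moved with the share of cells in these phases was not tested.

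**Figure D2:**
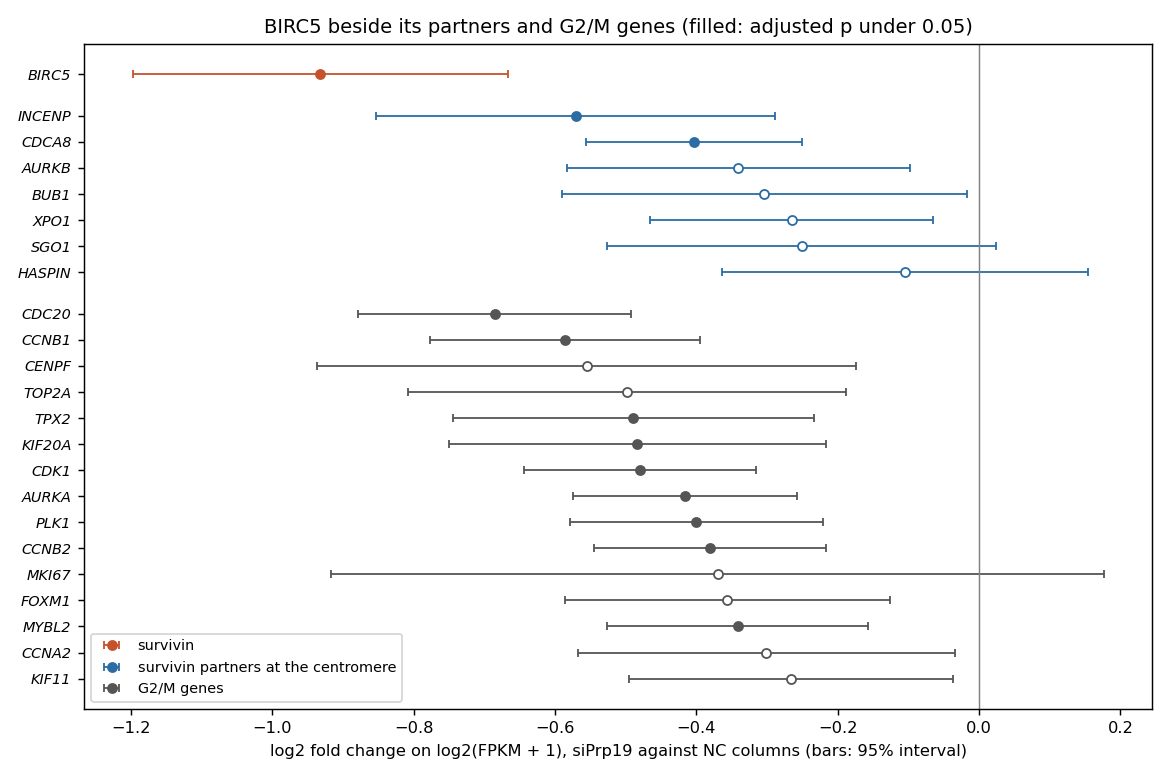
Log2 fold change on log2(FPKM + 1), siPrp19 against NC columns (horizontal axis), of *BIRC5*, its 7 partners at the centromere and 15 G2/M genes, with 95% intervals from limma; filled points have an adjusted p under 0.05. Every point lies below 0 and *BIRC5*, at -0.93, lies farthest from it.

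The pattern of *BIRC5* over the 6 libraries was most like those of *MMP14*, *ENSG00000280206*, *DOK4*, *RGS16* and *CYGB*, with Pearson's r of log2(FPKM + 1) of 0.9997, 0.998, 0.998, 0.998 and 0.998. These were the highest values among the 13718 genes, given as a description, since all 6 points share the split into NC and siPrp19 columns. All 5 genes fell by column names, by between 0.35 for *DOK4* and 0.95 for *RGS16* on the log2 scale.

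The cIAP genes both fell by column names. *BIRC3* (ENSG00000023445, chromosome 11, 102317450 to 102339403, plus strand) stood at 9.82, 10.5 and 8.99 FPKM in NCa, NCb and NCc and at 7.03, 5.96 and 6.21 FPKM in siPrp19a, siPrp19b and siPrp19c. The groups did not overlap, and siPrp19a was nearest to the NC columns. Its log2 fold change was -0.54 ± 0.09 (adjusted p = 0.0149), -0.45 in the 4 libraries (adjusted p = 0.252) and -0.06 as recorded. *BIRC2* (ENSG00000110330, chromosome 11, 102347211 to 102378670, plus strand) stood at 14.8, 13.5 and 14.1 FPKM in the NC columns and at 11.4, 11.1 and 11.1 FPKM in the siPrp19 columns. Its siPrp19 columns were close to each other, all below the lowest NC column. The log2 fold change was -0.31 ± 0.06 (adjusted p = 0.0336), -0.33 in the 4 libraries (adjusted p = 0.348) and -0.14 as recorded. *BIRC2* did not pass after quantile normalization (adjusted p = 0.0699), rescaling or voom (adjusted p = 0.0848), nor without the filter (adjusted p = 0.0573), and neither cIAP gene passed without NCa (adjusted p = 0.146 for *BIRC2* and 0.0691 for *BIRC3*), NCb (0.0897 and 0.0649), siPrp19b (0.143 and 0.0743) or siPrp19c (0.137 and 0.0742).

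Other genes near the cIAP pair were lower as well. Within 1 Mb of the start of *BIRC2* lie 44 annotated genes, of which 9 passed the filter and 6 fell by column names, the cIAP genes included. Of all genes tested, 5.37% fell. *YAP1*, the transcriptional coactivator of the Hippo pathway, begins at -237 kb from the start of *BIRC2* and stood at 20.7, 20.9 and 17.5 FPKM in the NC columns and at 7.65, 7.67 and 8.42 FPKM in the siPrp19 columns (log2 fold change -1.21 ± 0.09, adjusted p = 0.00182). *ENSG00000277459*, which begins near *YAP1*, changed by -0.74 (adjusted p = 0.0128). *TMEM123*, on the other side of *BIRC2*, changed by -0.68 (adjusted p = 0.00274) and the farther *DCUN1D5* by -0.51 (adjusted p = 0.04996). *CFAP300* (0.13), *DYNC2H1* (0.13) and *MMP1* (-0.09) did not pass. In the 4 libraries none of the 9 passed (*YAP1* -1.15, adjusted p = 0.0819), and by column names 2 fell without NCa, NCb, siPrp19b or siPrp19c, 5 without siPrp19a and 6 without NCc. With all 6 libraries, 4 fell without the filter, after quantile normalization, after rescaling or with voom. The number was 5 with a pseudocount of 0.1, without the trend or with the replicate block. With the close pairs averaged, none of the 9 passed.

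**Figure D3:**
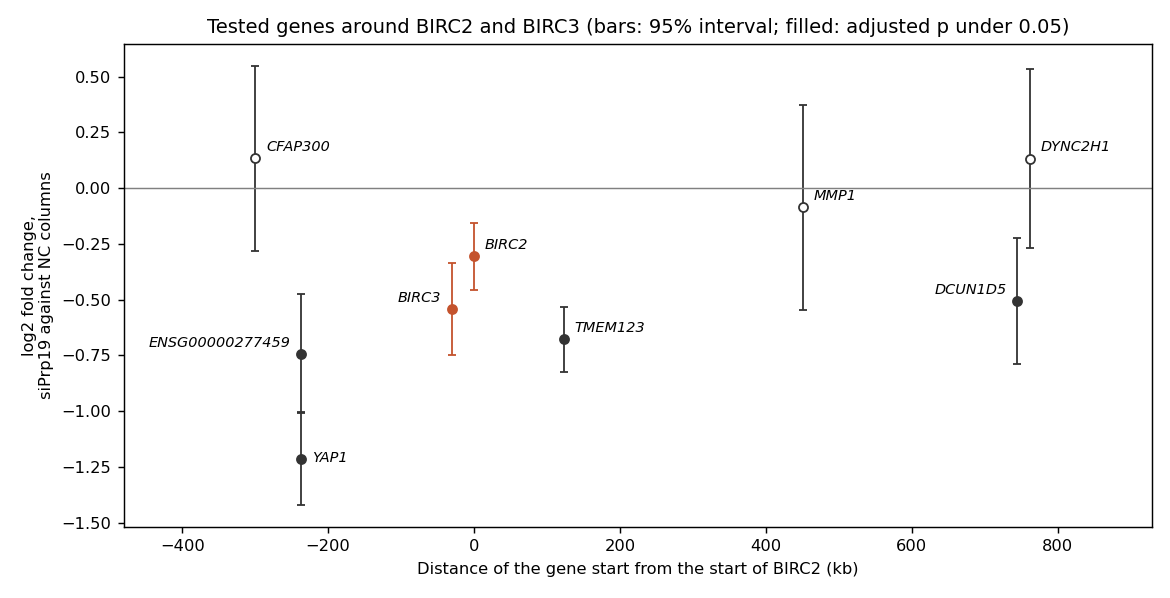
Log2 fold change, siPrp19 against NC columns (vertical axis, bars: 95% interval from limma), of the 9 tested genes against the distance of their start from that of *BIRC2* in kb (horizontal axis); filled points have an adjusted p under 0.05. *YAP1*, at -1.21, is the lowest, and *CFAP300*, *MMP1* and *DYNC2H1* lie near 0.

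By column names 5.37% of all genes tested fell. Of 14 genes that act with the cIAPs or in NF-kB signalling, 1 fell and none rose. This was *NFKB1*, which encodes the NF-kB subunit p50 and its precursor, at 20.5, 19.4 and 19.2 FPKM in the NC columns and 14.5, 15.0 and 14.7 FPKM in the siPrp19 columns (log2 fold change -0.39, adjusted p = 0.0141). *RELA*, which encodes the p65 subunit (-0.26, adjusted p = 0.0585), and the kinase gene *MAP3K7* (-0.35, adjusted p = 0.0733) had groups that did not overlap but did not pass. The same held for *NFKBIA* (-0.20, adjusted p = 0.262). The groups of *TRAF1* (0.14, adjusted p = 0.298) and *MAP3K14* did not overlap either, with the siPrp19 columns higher, and neither passed. Of all genes tested, 31.3% had groups that did not overlap. *TRAF2*, the adaptor that brings the cIAPs to the receptor, had a log2 fold change of -0.06 (95% interval -0.35 to 0.23). That of *MAP3K14*, whose kinase the cIAPs keep low as a protein in the alternative NF-kB pathway, was 0.08 (-0.14 to 0.30). Both values are of RNA and do not show protein levels. The median over the 14 was -0.04, beside -0.02 over all genes, and both medians turned above 0 with the scaling. They were 0.02 and 0.01 after quantile normalization, 0.0047 and 0.02 after rescaling, and 0.04 and 0.05 with voom. No gene of the 14 fell without NCa, NCb, siPrp19b or siPrp19c, nor after rescaling, while 2 fell without NCc and 3 without siPrp19a.

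*XIAP* (ENSG00000101966, chromosome X, 123859724 to 123913979, plus strand) stood at 6.87, 6.69 and 6.22 FPKM in the NC columns and at 4.59, 5.15 and 5.54 FPKM in the siPrp19 columns. The groups did not overlap, but the log2 fold change of -0.32 ± 0.08 did not pass (95% interval -0.51 to -0.13, adjusted p = 0.0630), nor did the same value of -0.32 in the 4 libraries (adjusted p = 0.423). Of 5 further IAPs and antagonists, only *SEPTIN4*, which encodes the XIAP antagonist ARTS, passed the filter (0.09, adjusted p = 0.673). *NAIP* and *XAF1* stayed under 0.2 FPKM in every library.

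*BIRC6* (ENSG00000115760, chromosome 2, 32357028 to 32618899, plus strand) encodes BRUCE, a very large ubiquitin-conjugating IAP. It stood at 10.2, 10.1 and 5.98 FPKM in NCa, NCb and NCc and at 11.6, 10.3 and 9.35 FPKM in siPrp19a, siPrp19b and siPrp19c. NCc was far below the other 5 libraries, and the groups overlapped. The log2 fold change was 0.25 ± 0.19 (95% interval -0.20 to 0.70, adjusted p = 0.477), and without NCc it was 0.03. *BIRC6* has 17858 exon bases, and NCc was low for other long genes too. Over the 1309 tested genes of at least 10 kb of exon, a class chosen after the value was seen, the median log2 distance from the mean of the 2 other libraries of its column group was -0.22 in NCc, and 85.8% lay below 0. It was 0.11 in NCa and 0.12 in NCb, which are measured against NCc among others. In the siPrp19 columns it was 0.12 in siPrp19a, -0.03 in siPrp19b and -0.09 in siPrp19c, where 77.8% lay below 0. The median over all genes was near 0 in each library. The part of gene length in the value of *BIRC6* was not tested.

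The antagonists of the IAPs did not pass in any comparison. *DIABLO* (ENSG00000184047, chromosome 12, 122207663 to 122226568, minus strand) stood at 1.13, 1.14 and 1.24 FPKM in the NC columns and at 1.27, 1.30 and 1.38 FPKM in the siPrp19 columns. It was the only one of the 8 genes whose siPrp19 columns all lay above the NC columns, by a small margin (0.09, 95% interval -0.14 to 0.32, adjusted p = 0.623). At this low level the value depends on the scale, and it was 0.16 with a pseudocount of 0.1 and 0.25 with voom, neither of which passed. *HTRA2* (ENSG00000115317, chromosome 2, 74529377 to 74533348, plus strand) stood at 15.8, 15.2 and 18.8 FPKM in the NC columns and at 12.0, 14.8 and 14.7 FPKM in the siPrp19 columns (-0.25, 95% interval -0.51 to 0.02, adjusted p = 0.240). Both genes share exon bases with others, 30.4% of those of *DIABLO* and 36.9% of those of *HTRA2*. Of the 2061 shared bases of *DIABLO*, 2006 are shared with *ENSG00000284934* on the same strand, which ranged from 0.49 to 1.26 FPKM. The shared bases of *HTRA2* belong to genes on the opposite strand, and the library kit does not mark strand. *AUP1*, on the opposite strand to *HTRA2*, ranged from 45.6 to 60.9 FPKM and *LOXL3* from 15.2 to 18.1 FPKM, so reads in the shared bases could not be assigned with certainty.

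*CASP9* (ENSG00000132906, chromosome 1, 15490832 to 15526534, minus strand) stood at 2.66, 2.65 and 3.18 FPKM in the NC columns and at 2.90, 3.91 and 3.37 FPKM in the siPrp19 columns. The groups overlapped, since siPrp19a lay below NCc, and the log2 fold change was 0.19 (95% interval -0.07 to 0.46, adjusted p = 0.346), 0.08 in the 4 libraries and -0.09 as recorded. Its partner *APAF1* stood at 3.09, 3.45 and 2.29 FPKM in the NC columns and at 4.52, 4.36 and 4.40 FPKM in the siPrp19 columns. The 3 siPrp19 columns of *APAF1* were all above the NC columns, but the log2 fold change of 0.47 missed the threshold (95% interval 0.19 to 0.75, adjusted p = 0.0581). *APAF1* passed as higher after quantile normalization (0.46, adjusted p = 0.0467), with voom (0.69, adjusted p = 0.0171) and without NCc (0.35, adjusted p = 0.0407). *CYCS*, which encodes cytochrome c, did not pass either (-0.41, 95% interval -0.82 to 0.01, adjusted p = 0.219).

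**Figure D4:**
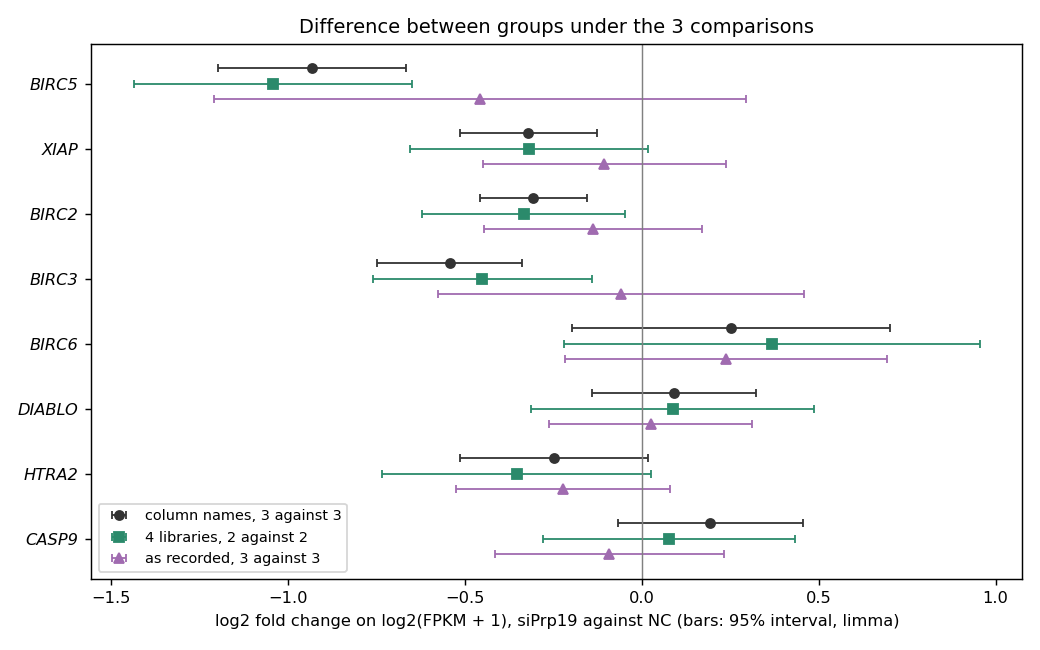
Log2 fold change on log2(FPKM + 1), siPrp19 against NC (horizontal axis), of the 8 genes in the comparisons by column names (circles), of the 4 libraries (squares) and as recorded (triangles), with 95% intervals from limma. *BIRC5* lies at -0.93, -1.04 and -0.46, and every as-recorded interval includes 0.

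None of the 6 other initiator and effector caspases passed by column names. *CASP8*, which starts the death receptor pathway, had a log2 fold change of 0.12 (-0.06 to 0.29). Of 5 inflammatory and other caspases, *CASP1* and *CASP4* passed the filter and neither passed the test. By column names 5.37% of all genes tested fell, and in the death receptor branch 1 of 7 tested genes did. This was *CFLAR*, which encodes the CASP8 inhibitor cFLIP, at 4.66, 4.43 and 4.41 FPKM in the NC columns and 3.15, 3.38 and 3.36 FPKM in the siPrp19 columns (-0.36, adjusted p = 0.0254).

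Among 9 caspase substrates 2 fell, both encoding B-type lamins of the nuclear envelope, beside 5.37% of all genes tested that fell. *LMNB2* stood at 98.4, 98.0 and 98.5 FPKM in the NC columns and at 61.9, 76.1 and 70.1 FPKM in the siPrp19 columns (log2 fold change -0.50, adjusted p = 0.0216), and *LMNB1* changed by -0.32 (adjusted p = 0.0456). *LMNA* (-0.08) and *PARP1* (-0.10), a DNA repair enzyme cut by caspases, did not pass. No gene of the lists named here passed in the 4 libraries or as recorded, and by column names *CFLAR*, *LMNB1* and *LMNB2* did not pass without NCa, NCb, siPrp19b or siPrp19c. *LMNB1* did not pass without NCc either (adjusted p = 0.0524). None of these 3 genes passed without the filter or after rescaling, *CFLAR* and *LMNB1* did not with the replicate block (adjusted p = 0.0600 and 0.0698), and *LMNB1* did not after quantile normalization, with voom or without the trend.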

How the data were processed

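The authors deposited 1 table per library with FPKM values for 58735 Ensembl genes. The submitters' processing notes name HISAT2 2.0.5, featureCounts 1.5.0-p3 and hg38. All identifiers were found in GENCODE 29, and 58207 took current symbols. FPKM times merged exon length gave whole reads for 100% of values (within 0.05 reads), used for depth and voom. Each library took the group of the sample described by its value column. The 13718 genes averaging at least 1 FPKM were tested with limma 3.58.1 (R 4.3.3) on log2(FPKM + 1), a mean-variance trend included, and p-values were adjusted over all of them by Benjamini-Hochberg; the log scale understates changes of low genes. The reading was not chosen from expression values. The threshold was an adjusted p of 0.05. The study's count test was not run, since the deposited unit is FPKM; the recovered reads were tested with voom as an alternative only. The procedure was tested on simulated data. The 8 genes and the gene lists were chosen with earlier results of these data known. Named were the 8 genes, *PRPF19*, *YAP1*, up to 5 called genes per list by size of change, the 5 genes most like *BIRC5* and tested genes within 1 Mb of *BIRC2*; other genes were named after their values were seen. Alternatives were a pseudocount of 0.1, no filter, quantile normalization, rescaling to equal sums, no trend, voom, the replicate block and leaving out single libraries. A block in the 4 libraries was added after seeing the data. Averaging the close pairs NCa with NCb and siPrp19b with siPrp19c was chosen after seeing the data. Python 3.11.15, numpy 2.4.6, pandas 2.3.3 and matplotlib 3.10.9 were used. Some list genes are not reported here.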

Additional observations from a re-analysis of the deposited data

How the results depend on the processing

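By column names, 3 of the 8 genes fell with a pseudocount of 0.1 or without the trend, and 2 (*BIRC5* and *BIRC3*) without the filter or with quantile normalization, rescaling or voom. Leaving out single libraries gave 1 to 3, with only *BIRC5* without NCa, NCb, siPrp19b or siPrp19c. With NCa and NCb averaged and siPrp19b and siPrp19c averaged (chosen after seeing the data), 0 passed (*BIRC5* -1.02, adjusted p = 0.120) and 2 genes were called in all. In the 4 libraries voom called 1 (*BIRC5*, -0.98, adjusted p = 0.00959). Leaving out single libraries turned the sign of *CASP9* there, with a range of -0.0178 to 0.173, and as recorded that of *BIRC3* (-0.256 to 0.0805), *DIABLO* (-0.0110 to 0.0646), *XIAP* (-0.220 to 0.0098) and *CASP9* (-0.193 to 0.0186). The cause was not tested. Calls over all genes by column names ranged from 253 to 1370 over these alternatives, apart from the averaging, and were 512 without the filter, 679 after rescaling and 266 of the 4 libraries with voom.

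With the replicate block, 2 of the 8 genes passed by column names (*BIRC2* adjusted p = 0.0600) and 928 genes in all. Same-numbered libraries correlated at 0.13, -0.05 and 0.20 in their deviations. Among the siPrp19 columns, NCa and NCc correlated best with their own number, but NCb with siPrp19a (0.13). These values cannot decide whether the numbers pair the libraries, since NCa was close to NCb and siPrp19b to siPrp19c. In the 4 libraries, which share 2 numbers by column name, a replicate block added after seeing the data gave 0 of the 8 (*BIRC5* adjusted p = 0.0894) and *PRPF19* did not pass either. Of 342 fold changes of the 8 genes and *PRPF19* under alternatives, 311 kept direction and side of the threshold, 21 lost or gained a call and 10 reversed.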

Other observations

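None of 6 mesenchymal neuroblastoma markers passed by column names, though all 6 lay below 0 (median -0.24). Of 8 tested sympathoadrenal markers 2 fell and 7 lay below 0 (median -0.28). Over all genes tested 5.37% fell and the median was -0.02. Leaving out single libraries gave 1 to 3 sympathoadrenal and 0 to 1 mesenchymal markers that fell. *PTPRC* fell by 0.63 on the log2 scale (adjusted p = 0.0202) and differed by -0.53 in the 4 libraries (adjusted p = 0.272). Without NCa, NCb, siPrp19b or siPrp19c, *PTPRC* did not pass.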
